A study of Mus musculus with 14 samples.

Results

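The miR-23, miR-24 and miR-27 family was followed in the failing mouse left ventricle through 11 array probes out of 520 mouse probes with processed values. Of the 11, 9 were chosen by name, the mouse probes mmu-miR-23a, mmu-miR-23b, mmu-miR-24, mmu-miR-27a, mmu-miR-27b, mmu-miR-27a*, mmu-miR-27b*, mmu-miR-24-1* and mmu-miR-24-2*, written below without the prefix. The other 2, miR-23a* and miR-23b*, were taken up because they are the opposite arms of members whose signal was at the ceiling of the scanner. RNA was compared between 3 groups of male C57Bl/6 mice aged 3 to 4 months. In the HF-ESTR group (n = 5), pressure overload by transaortic constriction (TAC) was followed to heart failure, and the mice then carried an estradiol pellet that released 0.03 mg/kg per day for 10 days. The HF group (n = 5) had the same surgery and was killed once heart failure was reached, without a pellet, at 6 to 8 weeks and an ejection fraction near 35%. The sham group (n = 4) had a sham operation, and healthy mice had an ejection fraction near 60%. The HF-ESTR hearts were therefore taken later after TAC than the HF hearts, so that the pellet and the added time cannot be told apart. There was 1 array per mouse, and precision is limited by their number.

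Mammalian genomes carry a pair of gene clusters in which the hairpins of a miR-23, a miR-27 and a miR-24 lie next to each other and are cut from a shared primary transcript. Each hairpin gives 2 mature strands, of which the one on the 3′ side is the abundant one in this family, while the strand on the 5′ side (marked with a star in the older names used on the array) is mostly degraded. The first bases of a mature miR, its seed, pair with target mRNAs and largely decide which mRNAs are repressed. In the heart, miR-23a is known as a miR that promotes cardiomyocyte growth, miR-27b as one whose excess causes hypertrophy in mice, and miR-24 for roles in cardiomyocyte survival and vascular cells.

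The sequences show how alike the members are. The miR-23a, miR-27a and miR-24-2 hairpins span 404 bases on the + strand of chromosome 8 (chr8:84208518-84208921, GRCm38.p6) and lie inside no annotated gene of the RefSeq table. The miR-23b, miR-27b and miR-24-1 hairpins span 792 bases on the + strand of chromosome 13 (chr13:63300484-63301275) and lie within the gene body of Aopep, which encodes an aminopeptidase. The abundant arms are printed below from 5′ to 3′ with the seed (bases 2 to 8) in capitals. They are credited to RefSeq (GRCm38.p6), apart from miR-23b, whose sequence was read from the deposited sheet and found in the RefSeq hairpin.
miR-23a: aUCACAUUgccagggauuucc
miR-23b: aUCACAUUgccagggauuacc
miR-27a: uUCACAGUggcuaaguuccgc
miR-27b: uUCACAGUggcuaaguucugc
miR-24: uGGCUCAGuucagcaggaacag
With positions counted from the 5′ end, miR-23a and miR-23b differ by 1 substitution (U19A) and miR-27a and miR-27b by 1 (C19U), so the 2 members of each pair share their seed. The miR-24 strand is identical from both clusters, and a single probe measured both. Signal of miR-23a and miR-23b, of miR-27a and miR-27b, or of the opposite arms below may have been shared between their probes to an extent that was not tested.

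The opposite arms of the 2 clusters differ at more positions. They are printed in the same way.
miR-23a*: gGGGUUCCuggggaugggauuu
miR-23b*: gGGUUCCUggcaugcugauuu
miR-27a*: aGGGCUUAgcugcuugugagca
miR-27b*: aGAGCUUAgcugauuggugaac
miR-24-2*: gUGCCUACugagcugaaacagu
miR-24-1*: gUGCCUACugagcugauaucagu
Only miR-24-1* and miR-24-2* share a seed among these. miR-27a* and miR-27b* have the same base at 14 of 22 positions, and miR-24-2* and miR-24-1* at 17 of the first 22. Both strands of a hairpin come from the same molecule, as the Mir27a precursor (chr8:84208672-84208758) and the Mir27b precursor (chr13:63300712-63300784) show, with the 2 mature arms in capitals.
Mir27a: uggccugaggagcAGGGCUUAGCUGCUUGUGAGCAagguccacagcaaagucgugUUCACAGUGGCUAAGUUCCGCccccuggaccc
Mir27b: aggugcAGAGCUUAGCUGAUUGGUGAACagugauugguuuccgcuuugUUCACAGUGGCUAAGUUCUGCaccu
Each probe held 2 copies of a DNA complement of its miR. The copies covered between 20 and 22 bases for 10 members and 18 bases of miR-24-2* (bases 5 to 22), which leaves the first bases of its seed outside the probe.

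Levels are given on the authors' log2 scale, which is close to the mean log2 intensity of 3 spots plus 1 scaling constant per array. The constant was estimated as the median over the probes of the scaled value minus log2 of the mean intensity. Single probes departed from log2 of the mean intensity plus this constant, by up to 1.89 log2 units in HF 1. Arrays of HF hearts were brighter than those of sham hearts. Their constants lay between -0.74 and -0.14 in HF mice and between 0.10 and 0.46 in sham mice, with -0.62 to 0.51 in HF-ESTR mice. Without the constants, the median of all 520 probes was 0.66 log2 units higher in HF than in sham hearts and 0.55 lower in HF-ESTR than in HF hearts, so all fold changes here are relative to the bulk of the probes on an array. Spots with an intensity of 65000 or more counted as saturated, as did a probe with at least 2 such spots of 3, and 478 of the 520 probes were saturated on no array. The column headers carry array codes of unstated meaning, in which all sham arrays have a leading code of their own, so that this code and the sham group cannot be told apart.

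Of the 5 abundant arms, 4 reached the ceiling of the scanner and miR-27b did not. miR-23a, miR-23b and miR-24 were saturated at all 3 spots on all 14 arrays, with mean intensities of the 3 spots between 65406 and 65465. Their scaled values only repeat the scaling constants, and no fold change can be given for them in any of the 3 comparisons. All were therefore present at high levels in HF-ESTR, HF and sham hearts, and their opposite arms were used in their place.

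miR-27a was saturated in all 5 HF mice, at 2 of 3 spots in HF 3 and at 3 spots in the others. In HF-ESTR mice it had mean intensities of 65430, 62091, 54200, 43586 and 49515, of which the first was saturated, against 48962, 41108, 38307 and 44988 in sham mice. All HF intensities thus lay above all sham intensities before scaling, a ratio of at least 1.51 that does not take the brighter HF arrays into account. After scaling, the saturated HF mean (15.55) lay below the sham mean (15.74), and no fold change can be given. Between HF-ESTR and sham hearts the scaled difference was 0.17 log2 units (SE 0.17, limma adjusted p = 0.589), with the saturated value of HF-ESTR 1 included. It was 0.30 without HF-ESTR 1 (adjusted p = 0.209) and 0.082 without HF-ESTR 2.

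miR-27b, which shares its seed with miR-27a, stayed below the ceiling on every array. Its scaled log2 values were 14.26, 14.63, 14.41, 14.51 and 14.49 in HF mice, against 14.23, 14.33, 14.05 and 14.20 in sham mice. Of the HF mice, 4 lay above all sham mice, and HF 1 lay within their range. The difference was 0.26 log2 units (SE 0.13, limma adjusted p = 0.144), with a 95% interval from -0.02 to 0.54. The HF-ESTR mice had 14.40, 14.67, 13.88, 14.48 and 14.44, a wider range that covered those of both other groups.

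**Figure D1:**
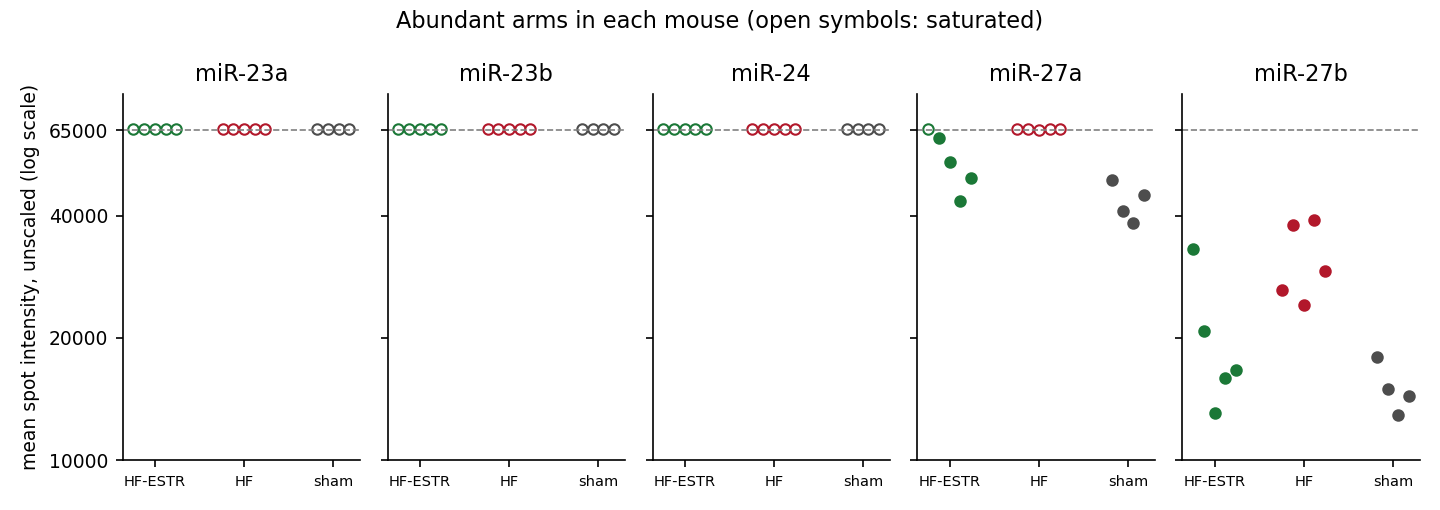
Mean intensity of the 3 spots in each mouse, unscaled and on a log scale, for the 5 abundant arms in HF-ESTR, HF and sham hearts. Open symbols are saturated values and the dashed line marks 65000. miR-23a, miR-23b and miR-24 sit on the ceiling on all 14 arrays, miR-27a on 5 HF arrays and 1 HF-ESTR array, and miR-27b on none.

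Further probes of the array named for miR-27a lie outside the mouse set, and 3 of them were above the negative controls on all 14 arrays. The probe named for the macaque miR-27a was between 14.42 and 14.96 in HF mice and between 14.17 and 14.46 in sham mice. The difference was 0.31 log2 units (SE 0.15, limma adjusted p = 0.131). A control probe named as a mutated miR-27a (mut1) gave 10.47 ± 0.07 in HF mice and 10.22 ± 0.17 in sham mice (SD, n = 5 and 4), a difference of 0.25 (adjusted p = 0.158). A second mutated control (mut2) had a difference in the other direction, of -0.34 (SE 0.20, adjusted p = 0.220). None of these differences passed the test, and the sequences of the 3 probes were not used here.

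Opposite arms of the miR-23 and miR-27 hairpins rose in HF hearts in both clusters, and those of the miR-24 hairpins did not pass the test. Of 7 members with a measurable fold change between HF and sham hearts, 4 were called higher (adjusted p under 0.05 and a log2 fold change over 0.5 in absolute size) and 0 lower. Over all 520 probes, 8.46% were called higher and 18.3% lower in HF hearts, with 8.58% called higher among the 478 probes saturated on no array. The median log2 fold change of the 7 members was 0.55, beside -0.13 for all probes. Without miR-23b*, whose sham mean was at the detection threshold, the count was 3 of 6 and the median 0.43.

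miR-27a*, the opposite arm of the saturated miR-27a, was called higher in HF hearts. Its scaled log2 values were 7.15, 6.90, 7.37, 7.21 and 7.89 in HF mice, against 5.83, 6.46, 6.44 and 6.63 in sham mice. All HF mice lay above all sham mice. The log2 fold change was 0.97 (SE 0.22, limma adjusted p = 0.00757), a 1.95-fold higher level in HF hearts. Its sham values were dim, between 0.41 and 0.90 log2 units above the threshold of their array. The size depends on the background, and it was 1.37 log2 units with the negative controls subtracted.

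miR-23b*, the opposite arm of the saturated miR-23b, was the dimmest member. It had 6.17, 6.70, 6.53, 6.81 and 6.40 in HF mice, against 5.57, 5.78, 5.26 and 5.89 in sham mice. The groups did not overlap, and the sham values lay within 0.46 log2 units of the threshold of their array, above it in 3 mice and below it in 1. The log2 fold change was 0.90 (SE 0.18, limma adjusted p = 0.00318). With sham hearts at the threshold its size is not settled, and it was 1.76 with the negative controls subtracted. miR-27a* and miR-23b* were thus the 2 members of 7 without overlap between HF and sham mice, beside 7.88% of all 520 probes for which every HF mouse was above every sham mouse.

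miR-27b*, the opposite arm of miR-27b, had 7.68, 8.49, 8.31, 8.42 and 8.41 in HF mice, against 7.46, 7.94, 7.44 and 7.75 in sham mice. HF 1 lay within the sham range and the other 4 HF mice above it. The log2 fold change was 0.61 (SE 0.19, limma adjusted p = 0.0308).

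miR-23a*, the opposite arm of miR-23a, had 6.68, 7.03, 7.24, 7.09 and 7.10 in HF mice, against 6.08, 6.73, 6.41 and 6.71 in sham mice. Again only HF 1 overlapped with the sham mice. The log2 fold change was 0.55 (SE 0.17, limma adjusted p = 0.0335). Its sham values were also dim, between 0.66 and 1.04 log2 units above the threshold of their array.

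The calls of miR-27b* and miR-23a* were lost when single mice were left out. The call of miR-27b* was lost without sham 1, sham 3, sham 4, HF 3, HF 4 or HF 5 (limma adjusted p between 0.0550 and 0.0967). That of miR-23a* was lost without sham 1, sham 3, HF 3, HF 4 or HF 5 (adjusted p between 0.0606 and 0.0890). The calls of miR-27a* and miR-23b* were kept when any 1 mouse was left out.

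The 2 opposite arms of miR-24 were measured with lower fold changes. miR-24-1*, the brightest of the opposite arms by the mouse probes, had 9.05, 8.98, 9.25, 9.38 and 9.58 in HF mice. It had 8.78, 9.06, 8.84 and 9.06 in sham mice. HF 1 and HF 2 overlapped with the sham mice, and the log2 fold change was 0.31 (SE 0.15, limma adjusted p = 0.143). miR-24-2* had 6.82, 7.11, 6.83, 6.43 and 6.65 in HF mice and 6.22, 6.61, 6.53 and 6.87 in sham mice. The ranges overlapped for most mice, and the log2 fold change was 0.21 (SE 0.17, limma adjusted p = 0.390), with a 95% interval from -0.17 to 0.59. A probe named for the human miR-24-2* was brighter on the same arrays, with means of 10.68 in HF and 10.48 in sham mice. Its log2 fold change was 0.20 (limma adjusted p = 0.294), and it was not called.

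**Figure D2:**
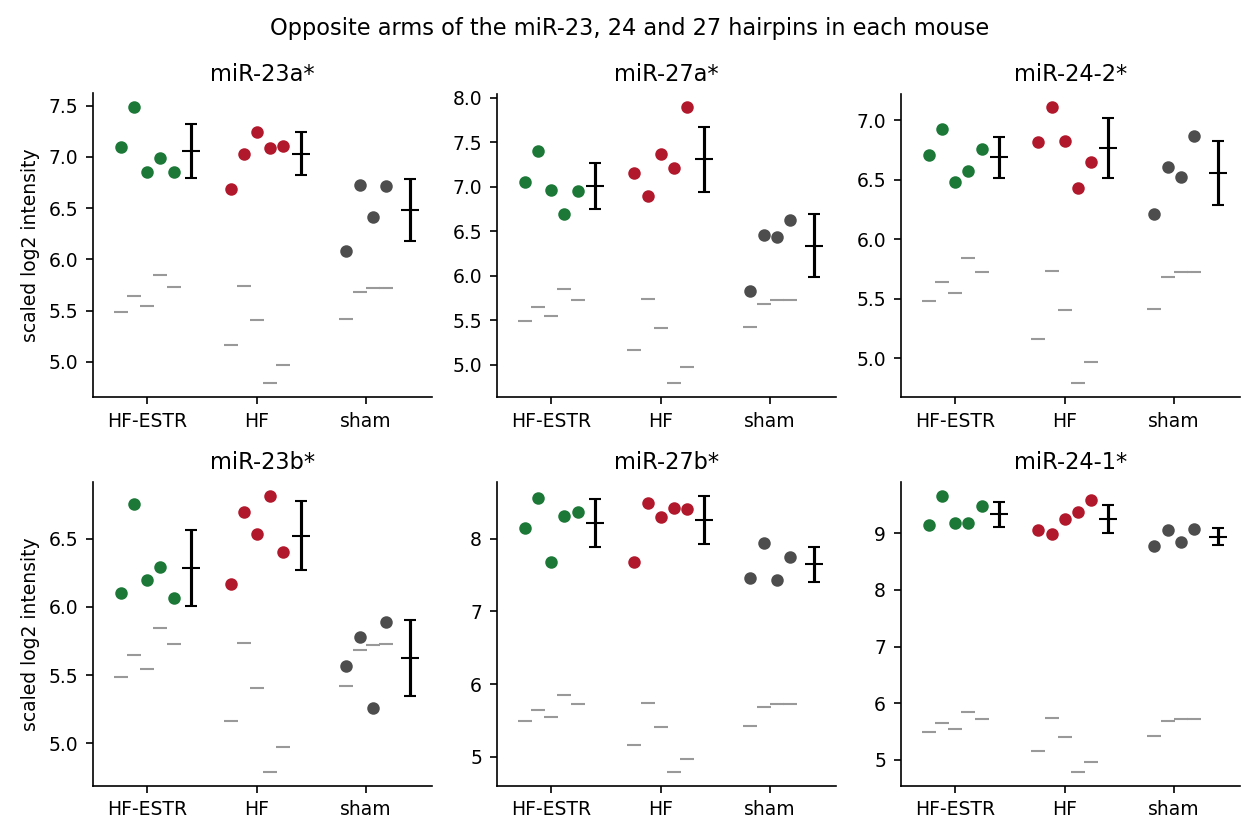
Scaled log2 intensity of the 6 opposite arms in each HF-ESTR, HF and sham mouse, with the chromosome 8 cluster in the upper row and the chromosome 13 cluster in the lower row. Black bars are mean ± SD, and grey dashes mark the detection threshold of each array. For miR-27a* and miR-23b* all HF mice lie above all sham mice, and for miR-24-2* the groups overlap.

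The scaling also set the level of the control probes. On the same scale the negative control probes averaged 3.85 ± 0.27 in HF mice and 4.64 ± 0.22 in sham mice (SD, n = 5 and 4). This difference of -0.79 was close to that of the scaling constants (-0.78). Before scaling, the median intensity of the controls averaged 22.7 in HF mice and 21.0 in sham mice (exact permutation p = 0.841). When the negative controls of each array were subtracted first, the log2 fold changes of miR-27a*, miR-23b*, miR-27b* and miR-23a* were 1.37, 1.76, 0.74 and 0.86. Without any scaling, all 7 measurable members were called higher in HF hearts, beside 244 of the 520 probes called higher and 0 lower. Of 132 other opposite arms named with a star, 9 were called higher (6.82%) and 16 lower in HF hearts, with a median log2 fold change of -0.20.

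Some marker miRs of other cells differed between HF and sham hearts. All 5 miRs of a fibroblast and mesenchymal list (miR-21, miR-214, miR-214*, miR-199a-5p and miR-199a-3p, of which all but miR-214* also stand in the list of hypertrophy miRs below) were called higher in HF hearts, with a summed level between 16.52 and 16.99 in HF mice and between 15.56 and 16.02 in sham mice. miR-199a-3p was saturated in all 5 HF mice and 1 HF-ESTR mouse and miR-199a-5p in 2 HF mice and 1 HF-ESTR mouse, so their part of the sum is a lower bound there. Of 6 white blood cell miRs, 3 were called higher (miR-142-5p, miR-223 and miR-146a), beside 8.46% of all 520 probes. miR-150 (log2 fold change -0.31), miR-155 (-0.13) and miR-142-3p (0.15) were not called. The summed level of the list was 14.70 to 15.00 in HF mice and 14.36 to 14.84 in sham mice. The part of these cells in the changes of the opposite arms was not tested. More cells of a type and more RNA per cell cannot be told apart in bulk tissue. The endothelial list had 1 saturated miR and 1 that was not called, the red blood cell list 1 saturated and 2 that were not called, and both smooth muscle miRs were saturated. Of 6 cardiac muscle miRs, 3 were saturated in HF and sham mice, and of the others miR-208b was called higher and miR-499 and miR-208a-3p lower. The cardiac muscle markers miR-1, miR-133a and miR-133b were saturated on all 14 arrays.

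In HF-ESTR hearts no measurable member was called different from HF hearts. limma called 0 of 7, with 0 at an unadjusted p under 0.05, and the test of 2 groups that the study's methods name also called 0, beside 12.1% of the 520 probes called by limma. Among the 478 probes saturated on no array, 8.16% were called. The largest difference was that of miR-27a*, which had 7.05, 7.40, 6.96, 6.69 and 6.95 in HF-ESTR mice and 7.15, 6.90, 7.37, 7.21 and 7.89 in HF mice. The ranges of the groups overlapped, and the log2 fold change was -0.29 (SE 0.20, limma adjusted p = 0.359), with a 95% interval from -0.71 to 0.12. Without HF 5, the highest HF mouse, it was -0.15, and that of miR-23b* was then -0.27. miR-23b* had 6.10, 6.76, 6.20, 6.29 and 6.06 in HF-ESTR mice and 6.17, 6.70, 6.53, 6.81 and 6.40 in HF mice, a log2 fold change of -0.24 (interval from -0.60 to 0.12). For the other 5 members the log2 fold changes were between -0.09 and 0.08, and the widest of their intervals, that of miR-27b*, ran from -0.44 to 0.35. These intervals do not show that the levels were equal. Without any scaling 4 of the 7 were called lower in HF-ESTR hearts, on arrays that were dimmer overall. Of all 520 probes, 170 were then called lower and 0 higher.

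A single leading code held both TAC groups, with HF-ESTR 1, HF-ESTR 2 and HF-ESTR 3 and the array of HF 5. Within it the difference of miR-27a* was -0.75 log2 units and that of the other 6 measurable members between -0.28 and 0.06, as values with no test, since HF was represented by 1 mouse.

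Set against sham hearts, the opposite arms of miR-23 were called higher in HF-ESTR hearts as well. Of 8 members (miR-27a included), 2 were called higher and 0 lower, beside 5.19% of the 520 probes called higher (5.02% of those saturated on no array). Without miR-23b*, whose sham mean was at the detection threshold, the count was 1 of 7 and the median log2 fold change 0.39. This comparison shares its sham mice with HF vs sham, so the 2 are not independent. miR-23b* had a log2 fold change of 0.66 (SE 0.18, limma adjusted p = 0.0288). miR-23a* had 7.10, 7.48, 6.85, 6.99 and 6.85 in HF-ESTR mice, against 6.08, 6.73, 6.41 and 6.71 in sham mice, a log2 fold change of 0.57 (SE 0.17, limma adjusted p = 0.0473). All HF-ESTR mice were above all sham mice for both.

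The arms of miR-27 had fold changes of the same size that did not pass. miR-27a* had a log2 fold change of 0.67 (SE 0.21, limma adjusted p = 0.0505) and was called under 7 of 26 alternatives, with the lowest adjusted p (0.0193) for array weights. miR-27b* had a log2 fold change of 0.57 (SE 0.20, limma adjusted p = 0.0867). For miR-27b*, HF-ESTR mice had 8.15, 8.56, 7.68, 8.31 and 8.36, of which HF-ESTR 3 was within the sham range, and without that mouse it was called (adjusted p = 0.0268). miR-24-1* had 9.14, 9.66, 9.18, 9.18 and 9.48 in HF-ESTR mice, all above the sham mice, with a log2 fold change of 0.39 (SE 0.15, limma adjusted p = 0.131). miR-24-2* and miR-27b had 0.14 and 0.17. In all, 4 of 8 members (miR-23a*, miR-27a*, miR-23b* and miR-24-1*) did not overlap between HF-ESTR and sham mice, beside 6.54% of all probes that were higher without overlap. Of these, miR-23b* had a sham mean at the detection threshold. The calls were close to the threshold: miR-23b* was lost without sham 1, sham 3, HF-ESTR 2 or HF-ESTR 4 (adjusted p between 0.0564 and 0.121), and miR-23a* was kept only without HF-ESTR 3 (adjusted p between 0.0452 and 0.136 over the 9 mice left out in turn). Of the fibroblast list, 4 of 5 miRs were called higher in HF-ESTR than in sham hearts (summed level 16.51 to 16.92 in HF-ESTR mice). Of the white blood cell list, 0 of 6 were, beside 5.19% of all 520 probes. The part of these lists in the values of the members was not tested.

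**Figure D3:**
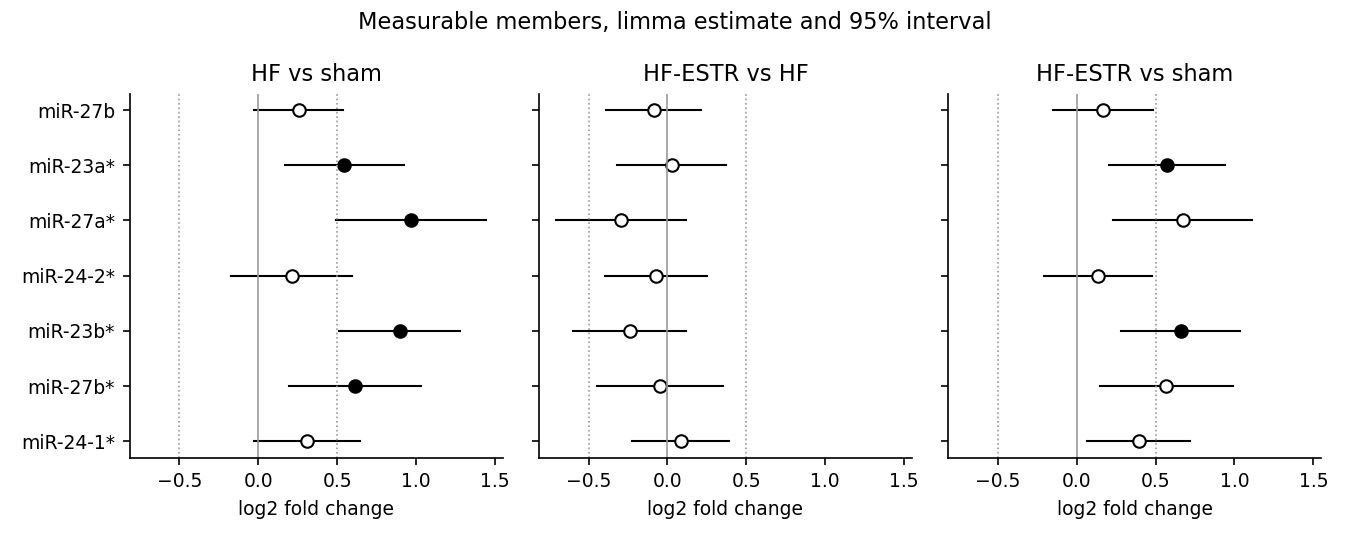
Log2 fold change and 95% interval (limma) of the 7 members that were unsaturated on all arrays, for HF vs sham, HF-ESTR vs HF and HF-ESTR vs sham. Filled symbols were called, and dotted lines mark a log2 fold change of 0.5 in either direction. The 4 called members of HF vs sham and the 2 of HF-ESTR vs sham are opposite arms of miR-23 and miR-27.

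An exact permutation test (two-sided) gave a similar order but few small values, since the groups of 5 and 4 have 126 regroupings. Over 22 tests of single members, the smallest p was 0.0159, reached in HF vs sham by miR-27a* and miR-23b* and in HF-ESTR vs sham by miR-23a*, miR-27a*, miR-23b* and miR-24-1*, and it was 0.0582 after Benjamini-Hochberg adjustment. No permutation test therefore passed the adjustment. With so few regroupings, a single member without overlap could not have passed it alone, so no conclusion is drawn from this.

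Comparing 2 members on the same array removes the scaling constant. miR-27a* minus miR-24-2*, 2 arms from the same chromosome 8 transcript, was 0.34, -0.21, 0.54, 0.78 and 1.24 log2 units in HF mice and -0.39, -0.15, -0.09 and -0.24 in sham mice. Of the HF mice, 4 were above all sham mice and HF 2 was within their range. The groups differed by 0.75 log2 units (exact permutation p = 0.0476, adjusted p = 0.167 over 18 such tests). At these group sizes a single pair without overlap could not pass this adjustment alone. In HF-ESTR mice the difference was 0.35, 0.47, 0.47, 0.11 and 0.19, all above the sham mice, by 0.54 on average (exact permutation p = 0.0159, adjusted p = 0.143). Both arms were dim in sham mice, where miR-27a* averaged 0.70 and miR-24-2* 0.92 log2 units above the threshold. Spots of miR-24-2* also scattered, with intensities of 81, 179 and 144 in HF 5, the mouse with the largest difference.

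The chromosome 13 cluster showed a smaller separation of the same pair of arms. miR-27b* minus miR-24-1* was -0.98 ± 0.33 in HF mice and -1.29 ± 0.12 in sham mice (SD, n = 5 and 4), a difference of 0.30 with overlap (exact permutation p = 0.127, adjusted p = 0.286). Between clusters, miR-27a* minus miR-27b* was -0.96 ± 0.46 in HF mice and -1.31 ± 0.30 in sham mice (exact permutation p = 0.238, adjusted p = 0.429). The change of one cluster against the other did not pass the test.

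The 2 arms of miR-27b could be followed together. miR-27b minus miR-27b* was 6.58, 6.14, 6.11, 6.09 and 6.08 in HF mice and 6.77, 6.39, 6.62 and 6.45 in sham mice. HF 1 lay among the sham mice and the other 4 HF mice below all of them, with a difference of -0.36 log2 units (exact permutation p = 0.0476, adjusted p = 0.167). In HF-ESTR mice it was 6.24, 6.11, 6.20, 6.16 and 6.07, all below the sham mice, with a difference of -0.40 (exact permutation p = 0.0159, adjusted p = 0.143). The gap between the abundant and the opposite arm was thus narrower in both TAC groups. It did not pass the adjustment over 18 tests, which a single pair could not pass alone. miR-27b was saturated on no array and miR-27b* lay between 1.71 and 3.63 log2 units above the threshold of its array.

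**Figure D4:**
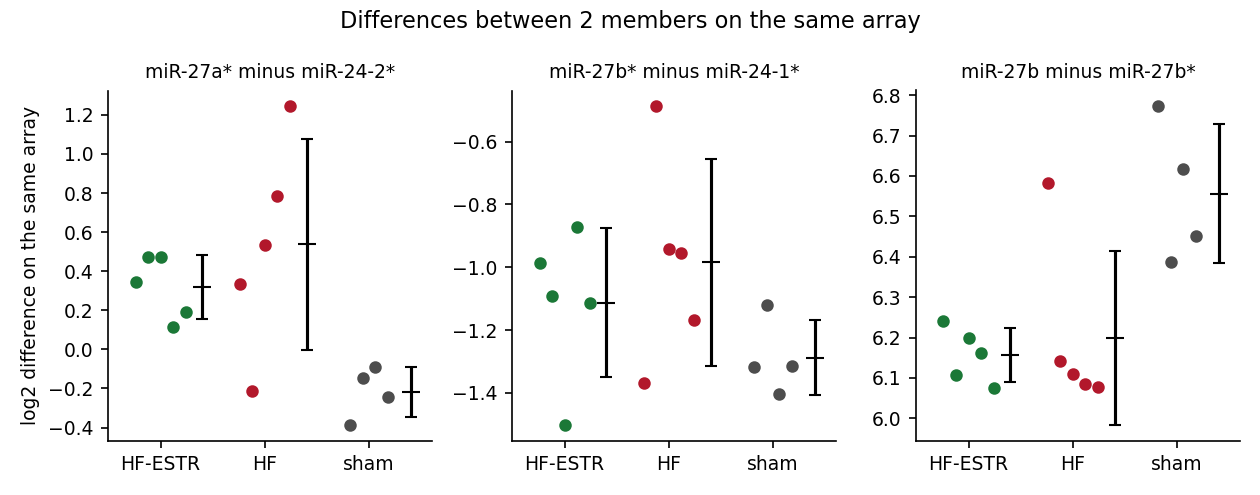
Difference in scaled log2 intensity between 2 members on the same array, in each HF-ESTR, HF and sham mouse, with black bars for mean ± SD. For miR-27a* minus miR-24-2* all HF-ESTR mice and 4 of 5 HF mice lie above the sham mice, and for miR-27b minus miR-27b* all HF-ESTR mice and 4 of 5 HF mice lie below them.

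Pearson correlation over the 14 arrays was used to find the probes most like each member, as a description, among 408 mouse probes that were unsaturated and above the threshold on all arrays. The arrays share their scaling and fall into 3 groups. miR-27b was most like its own opposite arm miR-27b* (r = 0.88, and 0.88 with group means removed), followed by let-7e (0.87) and miR-10b (0.78). This order depended on the scaling, since after quantile normalization let-7e came first (0.89) and miR-27b* was at 0.64. miR-23a* was most like miR-221 (0.92), miR-191 (0.90, and 0.55 after quantile normalization) and miR-222 (0.90). miR-27a* was most like miR-301a (0.91), miR-130a (0.89) and miR-497 (0.88). With group means removed, these values of miR-27a* were 0.78, 0.73 and 0.59.

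Within the chromosome 8 cluster, miR-23a* and miR-27a* had r = 0.82 (0.86 after quantile normalization, and 0.66 with group means removed). miR-27a* and miR-24-2* of the same cluster had 0.45, and miR-27a* and miR-24-1* from different clusters had 0.80. After quantile normalization these 2 values were 0.66 and 0.67, and with group means removed they were 0.27 and 0.79. miR-27b* was most like miR-425 (0.90), miR-1839-5p (0.88) and miR-27b (0.88). miR-24-1* was most like miR-324-5p, miR-18a and miR-103 (0.83 to 0.85), and miR-24-2* was most like miR-28, miR-330* and miR-99a* (0.71 to 0.78).

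Other miRs known to rise in the pressure-loaded heart gave a frame for these changes. Of 8 such miRs other than the members that were unsaturated in at least 1 of the groups, 7 were called higher in HF than in sham hearts (miR-21, miR-214, miR-199a-5p, miR-199a-3p, miR-195, miR-221 and miR-222) and miR-132 was not called, with a median log2 fold change of 0.92. miR-21, a miR of stressed fibroblasts, had a log2 fold change of 1.34 (SE 0.17, limma adjusted p = 0.00103). In HF-ESTR hearts 6 of the 8 were called higher than in sham hearts, beside 5.19% of all 520 probes. None was called different from HF hearts, beside 12.1% of all probes. miR-199a-3p was saturated in all 5 HF mice, so HF-ESTR and HF hearts could not be compared for it. Its fold change between HF and sham hearts is a lower bound. Those of miR-199a-5p, saturated in 2 HF mice, and miR-195, saturated in 1, are lower bounds too. miR-128, whose first bases hold the miR-27 seed shifted by 1 position, had a log2 fold change of -0.36 in HF hearts (SE 0.15, limma adjusted p = 0.0930) and was not called in any comparison.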

How the data were processed

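The authors labelled low molecular weight RNA of each left ventricle at the 3′ end and hybridized it to single-channel arrays with miRBase 16.0 probes. The deposited spot intensities are background-subtracted and unscaled. The deposited log2 values are, per the file headers, spot means scaled by a trimmed mean of each array. The scanner software is not given in the sources used here. The authors' deposited p-value, FDR and fold change columns over the 3 groups were not used. Members and lists were chosen with earlier results of these data known. The 12 probes of related names, the pair miR-23a* and miR-23b*, the list of other star arms and the hypertrophy list without the members were added after the data were seen.

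The scaled log2 values of 520 mouse probes were fitted with limma 3.58.1 (R 4.3.3; Benjamini-Hochberg over all probes). HF vs sham used 9 arrays, and both HF-ESTR comparisons used all 14. A probe was called when its adjusted p was below 0.05 and its log2 fold change beyond 0.5 in either direction, as in the study's methods with the log read as log2. Single members and differences on 1 array were compared with exact permutation tests (scipy 1.17.1). Intervals are 95%. Each probe named as most like a member was among its 3 highest correlations. On simulated arrays of HF vs sham, limma called 50 of 75 probes with a change of 0.7 and 72 of 75 with a change of 1. It also called 6 of 320 unchanged probes. The simulated noise was independent between probes, with no array-wide brightness, ceiling or floor, so these rates may not hold for the members. Alternatives covered scaling, background, filters, spots, tests, weights, blocks and leaving out each mouse.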

Additional observations from a re-analysis of the deposited data

Results flagged for a closer look

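miR-27b* in the HF group stood out because HF 1, at a scaled log2 value of 7.68, lay far below the other 4 HF mice (8.31 to 8.49). Its gap to the next mouse was 0.77 of the whole range of the group. This was 1 of 22 groups tested for a single extreme mouse, and chance flags about 1 in 20. Signal was also found in probes outside the 520 mouse probes, each above the 95th percentile of the negative controls on all 14 arrays. Their means over the 14 arrays were 14.54 for the macaque miR-27a probe, 10.31 for the mut1 and 6.22 for the mut2 control of miR-27a, 10.60 for the human miR-24-2* probe and 7.62 for the rat miR-27b* probe. Between HF and sham mice the rat miR-27b* probe had a log2 fold change of 0.97 (limma adjusted p = 0.00381 over 532 probes), the human miR-23b* probe 0.64 and the human miR-23c probe 0.71. The human miR-24-2* probe had 0.20 and was not called.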

How the results depend on the processing

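In HF vs sham, miR-27a* (log2 fold change 0.80 to 1.76) and miR-23b* (0.77 to 1.76) were called under all 26 alternatives. The count of called members, 4, was 7 without scaling, 2 with scaling to the 75th percentile of the detected probes, 2 with the methods' t-test and 2 to 4 when 1 mouse was left out. The call of miR-23a* was also lost with the median of the unsaturated probes (0.50, adjusted p = 0.0573) and with array weights (0.45), and that of miR-27b* after quantile normalization of the unscaled values (adjusted p = 0.0583). miR-23b* exceeded miR-27a* after quantile normalization, with negative controls subtracted, with array weights, with the replicate block and without HF 5 or sham 1. In HF-ESTR vs HF, 0 as reported, it was 4 without scaling and 0 when any mouse was left out. In HF-ESTR vs sham, 2 as reported, it was 0 without scaling, with the 75th percentile of the detected probes, with no detection filter and with the t-test, 1 with the median of the unsaturated probes, with 2 groups in the fit, with the replicate block and without the 2 arrays of code 650 (chosen after seeing the data), 4 with array weights and 0 to 3 when 1 mouse was left out.

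Small differences of HF-ESTR vs HF changed sign. That of miR-23a* (0.03) was -0.60 without scaling, -0.049 and -0.061 with quantile normalization of the scaled and unscaled values, -0.081 with the 75th percentile of all probes, -0.14 with negative controls subtracted, -0.062 with the spot median and -0.081 to 0.079 when 1 mouse was left out. miR-27b (-0.09) had 0.0011 with the median of the unsaturated probes, 0.018 with array weights and -0.16 to 0.035 when 1 mouse was left out. miR-24-2* (-0.08) had 0.0024 with that median, 0.061 with the code group as a block, 0.0064 without code 650 and -0.16 to 0.010 when 1 mouse was left out. miR-27b* (-0.05) had 0.016 with quantile normalization of the unscaled values, 0.0084 with the 75th percentile of the detected probes, 0.041 with that median, 0.12 with array weights, 0.027 without code 650 and -0.19 to 0.088 when 1 mouse was left out. miR-24-1* (0.08) had -0.53 without scaling, -0.017 with the 75th percentile of all probes and -0.25 with the code group as a block. On the same array, miR-24-2* minus miR-24-1* in HF vs sham (-0.10) was 0.14 after quantile normalization and -0.25 to 0.019 when 1 mouse was left out, and the same omission moved miR-27a* minus miR-27b* in HF-ESTR vs sham to between -0.016 and 0.21, miR-23a* minus miR-23b* there to between -0.20 and 0.012, and miR-27b minus miR-27b* in HF-ESTR vs HF to between -0.073 and 0.053. The cause of these changes was not tested.

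Same-numbered mice had a median correlation of 0.085 over 13 pairs and share only a number. Without scaling or with the 75th percentile of all probes, 244 and 72 probes were called higher and 0 and 49 lower in HF, against 44 and 95. The split was 45 higher and 32 lower with quantile normalization of the scaled and 42 and 13 of the unscaled values, 59 and 67 with negative controls subtracted and 42 and 229 with no detection filter. In HF-ESTR vs HF the 63 calls became 170 without scaling, 0 after quantile normalization of the unscaled values, 5 with the t-test, 20 with 2 groups in the fit, 0 with the code group as a block, 3 with quantile normalization of the scaled values, 16 with the 75th percentile of all probes, 6 with negative controls subtracted, 306 with no detection filter, 33 without saturated probes, 119 without code 650 and 5 to 87 when 1 mouse was left out. In HF-ESTR vs sham the 44 calls became 20 without scaling, 26 with the t-test and 25 with no detection filter. Signal near the ceiling or threshold limits the abundant and the dim arms.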
